A study of Mus musculus with 12 samples.

Results

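The genes reported are 6 of cholesterol synthesis and its control, followed through the liver of young mice. Hmgcs1, Idi1, Fdps, Sqle and Lss code for enzymes of the pathway, and Srebf2 codes for its main transcription factor. The 6 were taken from the deposited table by their symbols, and each symbol stands for 1 of its 47069 genes. Of those genes 28019 were above 0 in at least 1 library, and 17386 had a mean level high enough to be tested, all 6 among them.

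The study asked what becomes of the growing liver when hepatocytes cannot divide. Polyadenylated RNA was sequenced from isolated hepatocytes and from whole liver of mice at postnatal day 14 (P14, 2 weeks of age), and each compartment was taken from wild type (WT) mice and from Cdk1 Liv-/- mice, with 3 libraries in each of the 4 groups. Cdk1 Liv-/- mice carry floxed Cdk1 alleles and Cre recombinase driven by the Albumin promoter, so Cdk1 is deleted in the hepatocyte lineage. In Cdk1 Liv-/- liver the study saw staining for the floxed part of the Cdk1 RNA in interstitial cells only. RNA came from hepatocytes first isolated from the liver, or from whole liver that had been snap frozen. Handling thus differed between the compartments, and its part in their differences cannot be told apart from that of cell content. Housing was the same for all 4 groups. Light and dark alternated every 12 hours, specific pathogens were kept out, standard food was always available, and no other treatment was given. No source used here gives the strain, the time of day at harvest or whether WT mice carried floxed alleles. The study's methods call its replicates biological, while the labels number the libraries of a group without tying them to animals, so p-values measure the spread between these samples.

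Cholesterol is built from acetyl-CoA by way of mevalonate, isoprenoid diphosphates and squalene. When sterols are scarce, the protein made from Srebf2 leaves the endoplasmic reticulum with the escort protein Scap, is cleaved in the Golgi and enters the nucleus, where it switches on the enzymes of synthesis and genes of sterol uptake, and Insig proteins hold it back when sterols are plentiful. The liver both makes cholesterol and clears it from blood, and it disposes of it in lipoproteins, bile and bile acids.

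The members lie on different chromosomes or far apart. In the mouse build GRCm38, with gene bounds of GENCODE M21, Hmgcs1 spans chr13:119690379-119708260 and Idi1 chr13:8885501-8892451, both on the forward strand. Sqle lies at chr15:59315077-59331192 and Srebf2 at chr15:82147181-82205379, again on the forward strand, Lss at chr10:76531588-76557138 on the forward strand and Fdps at chr3:89093588-89101959 on the reverse strand. Promoter sequence from RefSeq (GRCm38.p6), from 250 bases before to 50 bases after the RefSeq start of each gene, was found for 4 of the 6 members, with Sqle and Fdps missing. Because the members moved together across libraries, these promoters were searched on both strands for TCACNCCAC, the core of a sterol regulatory element, and CCAAT, the letters read by NF-Y, which can share at most 1 letter where they overlap. All 4 held CCAAT, as did 12 of 13 further sterol enzymes with a promoter and 37.4% of 32851 promoters of the same length. TCACNCCAC was in that of Hmgcs1 alone, at -137 to -129, in 0 of the 13 further enzymes and in 1.24% of all promoters. A match is a description of letters and not a bound site. The windows that hold the matches of Hmgcs1 (chr13:119690101-119690330, -250 to -21), Lss (chr10:76531523-76531567, -82 to -38) and Srebf2 (chr15:82147114-82147158, -155 to -111) are shown on the forward strand, 5′ to 3′, with matches in capitals. ATTGG is CCAAT read from the reverse strand. The window of Hmgcs1 holds 4 of its 5 matches, and the fifth, a CCAAT on the reverse strand at 10 to 14, lies after the start and is not shown.
Hmgcs1: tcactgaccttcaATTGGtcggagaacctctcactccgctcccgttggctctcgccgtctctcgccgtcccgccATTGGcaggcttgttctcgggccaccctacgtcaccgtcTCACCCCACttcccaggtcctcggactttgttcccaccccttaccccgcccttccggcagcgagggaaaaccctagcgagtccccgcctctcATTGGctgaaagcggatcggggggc
Lss: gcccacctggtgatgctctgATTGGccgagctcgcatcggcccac
Srebf2: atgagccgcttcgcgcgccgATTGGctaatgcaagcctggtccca

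Levels are given as FPKM (fragments per kilobase of transcript, relative to all mapped fragments), which are scaled for the length of the transcript and the depth of the library. Differences are given as log2 fold changes, Cdk1 Liv-/- minus WT unless stated, on the scale of log2(FPKM + 0.5), which understates the change of weakly expressed genes. A gene passed when its adjusted p in limma was 0.1 or less, and KO stands for Cdk1 Liv-/- where single libraries are named. The table holds no read counts. From the steps between the lowest values of short genes, with reads taken as 75 bases long, 1 FPKM on 1 kb of transcript was estimated to stand for 34.7 to 49.8 reads. This is approximate, since only 56.2% to 63.3% of these values in a library lay within 0.1 reads of a whole number. Hepatocyte libraries had medians of 47.2 (WT) and 39.5 (Cdk1 Liv-/-), and whole liver libraries of 41.7 (WT) and 47.6 (Cdk1 Liv-/-).

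Cdk1 itself was checked first (ENSMUSG00000019942). It stood at 27.88, 20.38 and 28.16 FPKM in WT hepatocytes and at 9.68, 11.80 and 6.87 in Cdk1 Liv-/- hepatocytes, and at 25.32, 22.69 and 21.50 in WT whole liver against 11.66, 12.07 and 14.17 in Cdk1 Liv-/- whole liver. Every Cdk1 Liv-/- library was below every WT library of its compartment, so the genotype labels held. Cdk1 fell by 1.40 (SE 0.22, adjusted p = 0.0148) in hepatocytes and by 0.85 (SE 0.10, adjusted p = 0.00353) in whole liver. RNA from a gene that has lost only its floxed part can still be counted. The study also saw Cdk1 RNA in interstitial cells of Cdk1 Liv-/- liver. A level above 0 was thus possible in both compartments, but the part of either in these levels was not tested. By quantitative PCR the study could hardly detect Cdk1 RNA in Cdk1 Liv-/- hepatocytes at P14.

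There were 3 libraries that stood apart. The third library of Cdk1 Liv-/- whole liver had 158 FPKM of Xist, the RNA of the inactive X chromosome, against at most 0.14 in the other 11 libraries, and a summed level of 0 for genes of the Y chromosome (Uty, Kdm5d, Ddx3y and Eif2s3y) against 48.4 to 62.1 elsewhere. This goes against the study's use of male mice only. The third library of WT hepatocytes held endothelial, macrophage, stellate and neutrophil markers at levels near those of whole liver, as described next, whereas its erythroid, B, T and NK cell and cholangiocyte markers lay below every WT whole liver library. The second library of Cdk1 Liv-/- hepatocytes was above the other libraries of its group for all 6 members, by more than nearly all tested genes (percentiles of 98.1 to 99.9), so it was picked out by the members' own levels.

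Markers of the cell types in the liver moved with genotype and compartment, and their counts stand beside the shares of all tested genes, of which 12.1% rose and 6.61% fell in hepatocytes and 38% rose and 7.53% fell in whole liver. Hepatocyte markers, led by Alb, summed to 77300, 85290 and 80550 FPKM in WT hepatocytes and to 52640, 54320 and 50630 in Cdk1 Liv-/- hepatocytes, and to 79880, 78600 and 80840 in WT against 62420, 54810 and 60520 in Cdk1 Liv-/- whole liver. Of these 6 markers 2 rose and 2 fell in hepatocytes, and 0 rose and 3 fell in whole liver. The 8 sinusoidal endothelial markers, led by Stab1, summed to 127, 83.2 and 235 FPKM in WT hepatocytes against 59.0, 36.5 and 44.8, with 7 lower in Cdk1 Liv-/-, and to 121, 138 and 166 against 146, 185 and 150.0 in whole liver, with 1 higher. In the third WT hepatocyte library endothelial RNA was thus above every whole liver library.

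Kupffer cell and macrophage markers, led by Cd5l, summed to 365, 198 and 668 FPKM in WT and 222, 164 and 143 in Cdk1 Liv-/- hepatocytes, and to 522, 577 and 584 against 667, 902 and 696 in whole liver. Of these 10 genes 1 fell in hepatocytes and 4 rose in whole liver, a share near the 38% of all genes. The 8 stellate cell and fibroblast markers, led by Col3a1, came to 192, 117 and 394 against 119, 117 and 101 in hepatocytes and to 424, 419 and 484 against 816, 1012 and 777 in whole liver, with 1 gene lower in the former and 5 higher in the latter. For the 5 cholangiocyte markers, led by Spp1, the sums were 19.6, 14.6 and 30.1 against 66.8, 124 and 100.1 in hepatocytes and 59.4, 62.2 and 45.8 against 270.2, 139 and 259 in whole liver, with 4 higher in both.

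Markers of blood cells came next. Of 8 erythroid markers 7 were found, led by Hbb-bs, and they summed to 146, 107 and 581 FPKM in WT and 72.2, 99.6 and 24.4 in Cdk1 Liv-/- hepatocytes, and to 1103, 1229 and 2170 against 1165, 1768 and 1456 in whole liver, with 1 lower in hepatocytes and 2 lower in whole liver. Neutrophil markers, led by S100a9, reached 14.1, 11.9 and 49.9 against 20.5, 9.62 and 19.5 in hepatocytes and 72.3, 44.6 and 69.0 against 86.2, 306 and 250.1 in whole liver, where 5 of 7 rose. B cell markers, led by Cd79b, stood at 2.76, 1.49 and 6.08 against 0.73, 0.59 and 0.40 in hepatocytes and at 12.2, 10.9 and 13.3 against 4.93, 11.7 and 8.22 in whole liver, with 2 of 4 lower in each. T and NK cell markers, led by Cd3g, were at 2.01, 1.76 and 2.62 against 1.11, 0.70 and 0.85 in hepatocytes, with 2 of 5 lower, and at 5.81, 8.5 and 4.42 against 5.05, 6.02 and 5.83 in whole liver. No marker found was at 0 in any library. In bulk samples fewer cells of a type and less RNA per cell cannot be told apart, and the part of these cells in the results for the sterol genes was not tested.

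In whole liver all 6 members rose in Cdk1 Liv-/-, where 38% of all tested genes rose (6610) and 7.53% fell (1310). Every Cdk1 Liv-/- library was above every WT library for each of the 6, as it was for 43.2% of all genes. Their median log2 fold change was 1.25, beside 0.18 over all genes. That shift of all genes depends on scale: with median-ratio scaling between libraries it was 0.01, and 3107 genes then rose and 2844 fell. Against the median of all genes, that of the members lay 1.07 higher as deposited and 1.02 higher with median-ratio scaling, and all 6 members were above it under both, but only 3 of them (Sqle, Idi1 and Fdps) passed with median-ratio scaling. Sqle, Idi1 and Fdps passed under all 16 settings tried, whereas Hmgcs1 passed under 7, Lss under 9 and Srebf2 under 7. The count of members was also 3 with no filter on low values and without whole liver WT replicate 2, WT replicate 3 or KO replicate 3, and the 1310 genes that fell became 859 without WT replicate 1.

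In isolated hepatocytes 0 of 6 members passed in limma, where 12.1% of all tested genes rose (2108) and 6.61% fell (1149). At an unadjusted p under 0.05 there were 2 members, Sqle and Lss, and 4939 of all genes. These 2 were also the members with every Cdk1 Liv-/- library above every WT library, a pattern held by 20.6% of all genes. The members' median log2 fold change was 0.90, beside 0.05 over all genes, and 5 of the 6 lay above the median of all genes. That median depended on KO replicate 2, without which the difference of each member was lower. It was then 1.38 for Sqle, 0.51 for Lss, 0.24 for Fdps, 0.068 for Idi1, -0.18 for Hmgcs1 and -0.46 for Srebf2. A miss of the threshold does not show that levels were alike, since the 3 Cdk1 Liv-/- libraries were far apart. With all 12 libraries in 1 fit 2 members passed, Sqle and Lss, while 3434 of all genes rose and 2072 fell, and among genes with a mean of at least 1 FPKM 1 member passed (Sqle). Without a filter on low values the 1149 genes became 714. Without hepatocyte KO replicate 1 the count of members was 1 (Sqle), the 2108 genes became 1157 without WT replicate 1 and 1274 without WT replicate 2, and the 1149 became 402, 763, 664, 647 and 497 without WT replicate 1, WT replicate 3, KO replicate 1, KO replicate 2 and KO replicate 3. With both WT replicate 3 and KO replicate 2 left out, a setting chosen after the values were seen that leaves 2 libraries a group, Hmgcs1 passed as lower and the other 5 members did not pass, while 1250 of all genes rose and 525 fell.

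**Figure D1:**
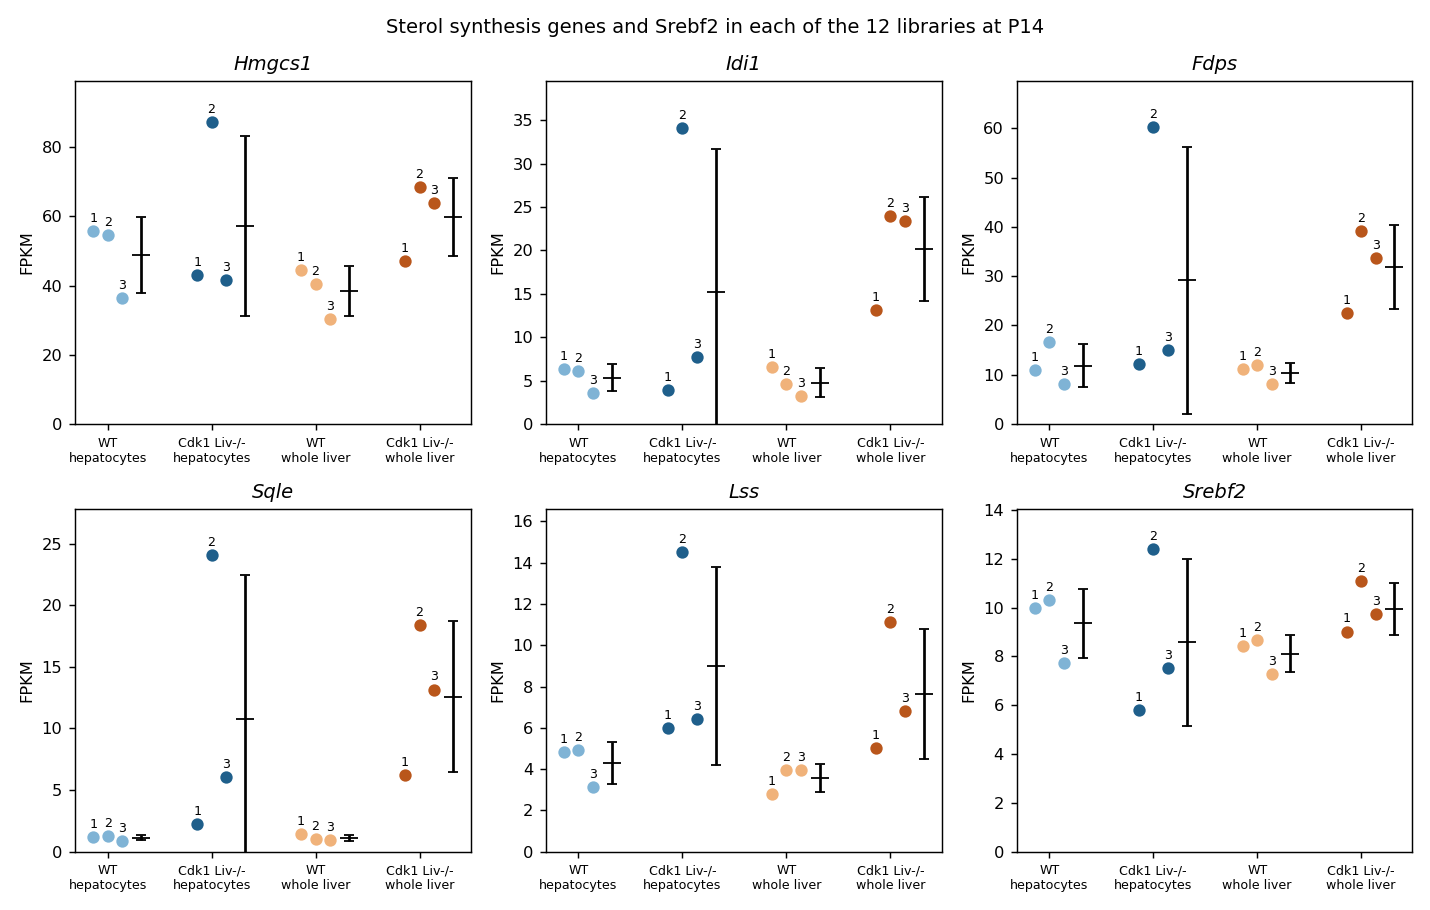
Each panel shows 1 of the 6 genes, with FPKM on the vertical axis and the 4 groups on the horizontal axis; numbered points are the 3 libraries of a group, and the black mark beside them is the mean with 1 SD either way, drawn no lower than 0. In whole liver the Cdk1 Liv-/- points lie above the WT points in every panel, while in hepatocytes replicate 2 of Cdk1 Liv-/- lies above all others.

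Hmgcs1 (ENSMUSG00000093930) makes HMG-CoA, the substrate of the step to mevalonate, and was the most abundant member. It stood at 44.54, 40.34 and 30.48 FPKM in WT whole liver, a mean of 38.5 ± 7.22 (SD, n = 3), and at 47.04, 68.52 and 63.73 in Cdk1 Liv-/- whole liver, a mean of 59.8 ± 11.3. The groups did not overlap, but the highest WT and the lowest Cdk1 Liv-/- library were close. Its level rose by 0.63 (SE 0.19, adjusted p = 0.0524), and that call was lost with median-ratio scaling (0.41, adjusted p = 0.16), with no filter (0.116), with all 12 libraries in 1 fit (0.131) and without whole liver WT replicate 2, WT replicate 3, KO replicate 2 or KO replicate 3, with an adjusted p of 0.0317 to 0.16 over all settings. In hepatocytes it stood at 55.88, 54.54 and 36.32 FPKM in WT and at 43.08, 87.26 and 41.51 in Cdk1 Liv-/-. Here the groups overlapped fully apart from Cdk1 Liv-/- replicate 2. The difference of 0.16 (95% interval -0.62 to 0.95, adjusted p = 0.778) had the other sign without WT replicate 3 (-0.035) or without KO replicate 2 (-0.18). With both of these left out it was -0.38 and passed as lower (adjusted p = 0.0757, 0.0757 to 0.967 over all settings). KO replicate 2 was picked by the members' own levels, and WT replicate 3 had the lowest WT level of Hmgcs1. That choice favoured a lower value, so no direction is read from it.

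Idi1 (ENSMUSG00000058258) interconverts the isoprenoid building blocks isopentenyl and dimethylallyl diphosphate. Its level was 6.52, 4.60 and 3.20 FPKM in WT whole liver (4.77 ± 1.67, SD, n = 3) and 13.19, 23.92 and 23.35 in Cdk1 Liv-/- whole liver (20.2 ± 6.04). Even the lowest Cdk1 Liv-/- library was above the WT range. Idi1 rose by 1.97 (SE 0.32, adjusted p = 0.00845) and passed without any 1 of the 6 libraries. WT hepatocytes had 6.37, 6.08 and 3.60 FPKM, much as whole liver, and Cdk1 Liv-/- hepatocytes had 3.87, 34.15 and 7.67. Replicate 1 of the latter lay within the WT range, replicate 3 just above it and replicate 2 far above. The difference was 0.91 (95% interval -0.87 to 2.70, adjusted p = 0.459), 0.068 without KO replicate 2 and -0.17 without KO replicate 2 and WT replicate 3. The values of Idi1 are uncertain to a degree, because 3 other genes match its transcripts at 95% identity or more over at least 300 bases. Of these, the pseudogene Gm13502 is identical over 684 bases and had 2.05, 2.09, 0, 1.53, 11.65 and 2.18 FPKM in the hepatocyte libraries and 1.21, 0.84, 0.54, 2.39, 6.55 and 3.29 in the whole liver libraries, WT before Cdk1 Liv-/- in each. Its levels followed those of Idi1, so reads may have been shared between them, which was not tested. Another copy, Gm35570 (97.7% identity over 681 bases), did not follow Idi1. In the same order it had 0.89, 0.27, 0.54, 0.05, 0.88 and 2.23 FPKM in hepatocytes. In whole liver it had 0.16, 0.05, 0.15, 0.08, 0.13 and 0.09.

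Fdps (ENSMUSG00000059743) joins these units to farnesyl diphosphate, from which sterols, ubiquinone and the lipid anchors of proteins are made. WT whole liver had 11.12, 11.92 and 8.07 FPKM (10.4 ± 2.03, SD, n = 3) and Cdk1 Liv-/- whole liver 22.53, 39.23 and 33.73 (31.8 ± 8.51). The groups were well apart, with replicate 1 lowest among the Cdk1 Liv-/- libraries, as for the other 5 members. Fdps rose by 1.55 (SE 0.24, adjusted p = 0.0076), also without any 1 of the 6 libraries. The hepatocyte values were 10.89, 16.57 and 8.10 FPKM in WT and 12.10, 60.36 and 15.06 in Cdk1 Liv-/-. Only replicate 2 left the WT range. The difference was 0.95 (95% interval -0.55 to 2.44, adjusted p = 0.364), 0.24 without KO replicate 2 and 0.0060 without KO replicate 2 and WT replicate 3. Fdps transcripts resemble those of 5 other genes, of which 4 are in the table with a summed level of at most 0.40 FPKM.

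Sqle (ENSMUSG00000022351) turns squalene into its epoxide, the first step that needs oxygen and a control point of the pathway. It was the least abundant member in WT, with 1.40, 1.01 and 0.97 FPKM in whole liver (1.13 ± 0.238, SD, n = 3), and had 6.21, 18.39 and 13.16 FPKM in Cdk1 Liv-/- whole liver (12.6 ± 6.11). The ratio of the group means was 11.2, and the Cdk1 Liv-/- libraries differed among themselves by up to 2.96 times. On the log2 scale Sqle rose by 2.89 (SE 0.38, adjusted p = 0.00497), the largest difference among the 6, with 2.57 to 3.31 over the other settings. WT hepatocytes held 1.19, 1.31 and 0.89 FPKM and Cdk1 Liv-/- hepatocytes 2.21, 24.05 and 6.03. All 3 were above WT, replicate 1 by little, and the highest was 10.9 times the lowest. The difference of 2.23 (95% interval 0.40 to 4.05) missed the threshold at an adjusted p of 0.117. It passed with all 12 libraries in 1 fit (adjusted p = 0.0283) and among genes with a mean of at least 1 FPKM (0.0835). Without KO replicate 1 it was 2.97 and passed, without KO replicate 2 it was 1.38, and the adjusted p was 0.0283 to 0.25 over all settings.

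Lss (ENSMUSG00000033105) closes the epoxide to lanosterol, the first sterol. Its level was 2.81, 3.98 and 3.95 FPKM in WT whole liver (3.58 ± 0.667, SD, n = 3) and 5.01, 11.14 and 6.82 in Cdk1 Liv-/- whole liver (7.66 ± 3.15). The groups did not overlap, although replicate 2 was well above the other Cdk1 Liv-/- libraries. Lss rose by 0.94 (SE 0.29, adjusted p = 0.0518), a call lost with median-ratio scaling (0.74, adjusted p = 0.107), with no filter (0.116) and without any 1 of the WT replicates or KO replicate 3, with an adjusted p of 0.0299 to 0.152 over all settings. In hepatocytes 4.84, 4.93 and 3.14 FPKM in WT stood beside 5.99, 14.52 and 6.45 in Cdk1 Liv-/-. Every Cdk1 Liv-/- library was again above WT, with replicate 2 the highest. The difference was 0.89 (95% interval 0.03 to 1.76, adjusted p = 0.164), 0.51 without KO replicate 2 and 0.32 without KO replicate 2 and WT replicate 3. It passed with all 12 libraries in 1 fit (adjusted p = 0.0854, 0.0854 to 0.341 over all settings).

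Srebf2 (ENSMUSG00000022463) had the smallest difference of the 6 in whole liver. It stood at 8.42, 8.67 and 7.26 FPKM in WT whole liver (8.12 ± 0.752, SD, n = 3) and 9.02, 11.10 and 9.73 in Cdk1 Liv-/- whole liver (9.95 ± 1.06), groups that lay side by side without overlap. Its rise of 0.28 (SE 0.10, adjusted p = 0.0871) was close to the 0.18 of the median gene. With median-ratio scaling it was 0.067, and the call was also lost with no filter (adjusted p = 0.147), with all 12 libraries in 1 fit (0.382) and without any 1 of the WT replicates, KO replicate 2 or KO replicate 3, the adjusted p being 0.0601 to 0.618 over all settings. WT hepatocytes had 10, 10.33 and 7.72 FPKM and Cdk1 Liv-/- hepatocytes 5.81, 12.41 and 7.54. A pair of Cdk1 Liv-/- libraries lay below the WT range and the other above it. The difference was -0.17 (95% interval -0.84 to 0.49, adjusted p = 0.724), and 0.059 without KO replicate 1.

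The compartments were then compared within a genotype, as hepatocytes minus whole liver. In WT 0 of 6 members passed in limma, with 0 at an unadjusted p under 0.05, where 2.93% of all genes passed (510) and 3049 had an unadjusted p under 0.05. The differences ran from 0.0039 for Sqle, whose sign depended on single libraries (-0.076 to -0.027 without WT replicate 1 or 2 of hepatocytes or WT replicate 2 or 3 of whole liver), to 0.33 for Hmgcs1. Those of Fdps (0.15) and Idi1 (0.16) also changed sign, Fdps without hepatocyte WT replicate 2 (-0.12) or whole liver WT replicate 3 (-0.017) and Idi1 without the latter (-0.070). For each member the WT libraries of both compartments thus formed 1 overlapping range. The count of all genes was 2457 without hepatocyte WT replicate 3, the library rich in RNA of other cells, and 95 to 220 without any 1 of the other 5 WT libraries (95 and 120 without hepatocyte WT replicates 1 and 2, and 180, 106 and 220 without whole liver WT replicates 1, 2 and 3).

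In Cdk1 Liv-/- mice 0 of 6 members differed between hepatocytes and whole liver in limma, again with 0 at an unadjusted p under 0.05, although 51.1% of all genes did (8876, and 8844 at an unadjusted p under 0.05). Differences ran from -0.90 for Idi1 to 0.18 for Lss. In this order of levels Cdk1 Liv-/- hepatocyte replicate 2 was above the whole liver libraries for 6 of 6 members and replicates 1 and 3 below all 3 of them for 5 (all but Lss), so the wide group of hepatocytes surrounded the narrower one of whole liver. Without hepatocyte KO replicate 2, 4 members passed with lower levels in hepatocytes, Sqle (-1.51), Idi1 (-1.74), Fdps (-1.17) and Srebf2 (-0.55), at adjusted p values of 0.00668 to 0.0225, while the difference of Lss became -0.21, and -0.072 without whole liver KO replicate 1. Hepatocyte KO replicate 2 was picked out by the members' own high levels, so leaving it out lowers them in hepatocytes by construction. No direction is read from these calls. Of all genes 7470 to 8676 passed without 1 library. The difference of Sqle (-0.66) became 0.077 without hepatocyte KO replicate 1, and that of Hmgcs1 (-0.13) became 0.029 without hepatocyte KO replicate 1, 0.056 without KO replicate 3 and 0.14 with median-ratio scaling. With hepatocyte KO replicate 2 and whole liver KO replicate 3 both left out, chosen after the values were seen, Sqle, Idi1, Fdps and Srebf2 passed as well. Over all settings the adjusted p was 0.0225 to 0.923 for Sqle, 0.00668 to 0.744 for Idi1, 0.0143 to 0.966 for Fdps and 0.0209 to 0.994 for Srebf2.

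Whether the genotype difference itself was another in hepatocytes than in whole liver was tested as an interaction in 1 fit of the 12 libraries. No member passed in limma (0 of 6, with 0 at an unadjusted p under 0.05), where 9.85% of all genes did (1712, and 4106 at an unadjusted p under 0.05). All 6 estimates were negative, from -1.06 for Idi1 (SE 0.86, adjusted p = 0.5) to -0.050 for Lss (adjusted p = 0.967), with -0.67 for Sqle, -0.61 for Fdps, -0.47 for Hmgcs1 and -0.45 for Srebf2. The median over all genes was -0.11 too, or 0.011 with median-ratio scaling, and Lss lay above it as deposited. The estimate of Lss was positive in 7 of the 22 other settings, up to 0.24, and that of Sqle was 0.073 without hepatocyte KO replicate 1. This test thus did not show the members to differ in whole liver alone. Without hepatocyte KO replicate 2, Idi1 (-1.90, adjusted p = 0.0783) and Srebf2 (-0.73, adjusted p = 0.0867) passed, beside ranges of 0.0783 to 0.777 and 0.0867 to 0.662 over all settings, and 8 of the 16 further enzymes did too, where 0 had with all libraries. The count of all genes then stayed within 1.5 times of 1712. That library was picked out by the members' own high levels, and Msmo1 (43.26 FPKM) and Cyp51 (18.84 FPKM) of the further enzymes were also highest there. Leaving it out thus favours negative values by construction, and no direction is read from these calls. With hepatocyte WT replicate 3 and whole liver KO replicate 3 left out together, a setting chosen after the values were seen, 0 members passed, as with hepatocyte KO replicate 2 left out beside them. The 1712 genes became 78 without whole liver WT replicate 1 and 2639 without hepatocyte WT replicate 2, and moved by more than 1.5 times without any 1 library other than hepatocyte KO replicate 2 and whole liver KO replicate 1.

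The 6 members varied together from library to library. The mean of their z-scores was highest in Cdk1 Liv-/- hepatocytes replicate 2 (1.86), followed by the 3 Cdk1 Liv-/- whole liver libraries (1.30 for replicate 2, 0.89 for replicate 3 and 0.21 for replicate 1). It was lowest in WT whole liver replicate 3 (-1.07) and WT hepatocytes replicate 3 (-0.98). The other Cdk1 Liv-/- hepatocyte libraries, at -0.67 and -0.14, lay among the WT libraries, which otherwise ran from -0.59 to -0.043. Over the 12 libraries the Pearson correlation of log2 levels between members ran from 0.547 to 0.969 in 15 pairs, a description of libraries that share genotype and compartment. Of 12276 other genes compared, all with a mean of 1 FPKM or more, those most like the members' mean were Msmo1 (r = 0.993), Cyp51 (0.983), Api5 (0.965) and Hspa4 (0.956), over 12 libraries, with 1 further gene not reported here. Msmo1 and Cyp51 remove methyl groups of lanosterol, Api5 is an inhibitor of apoptosis and Hspa4 a chaperone of the Hsp110 family.

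**Figure D2:**
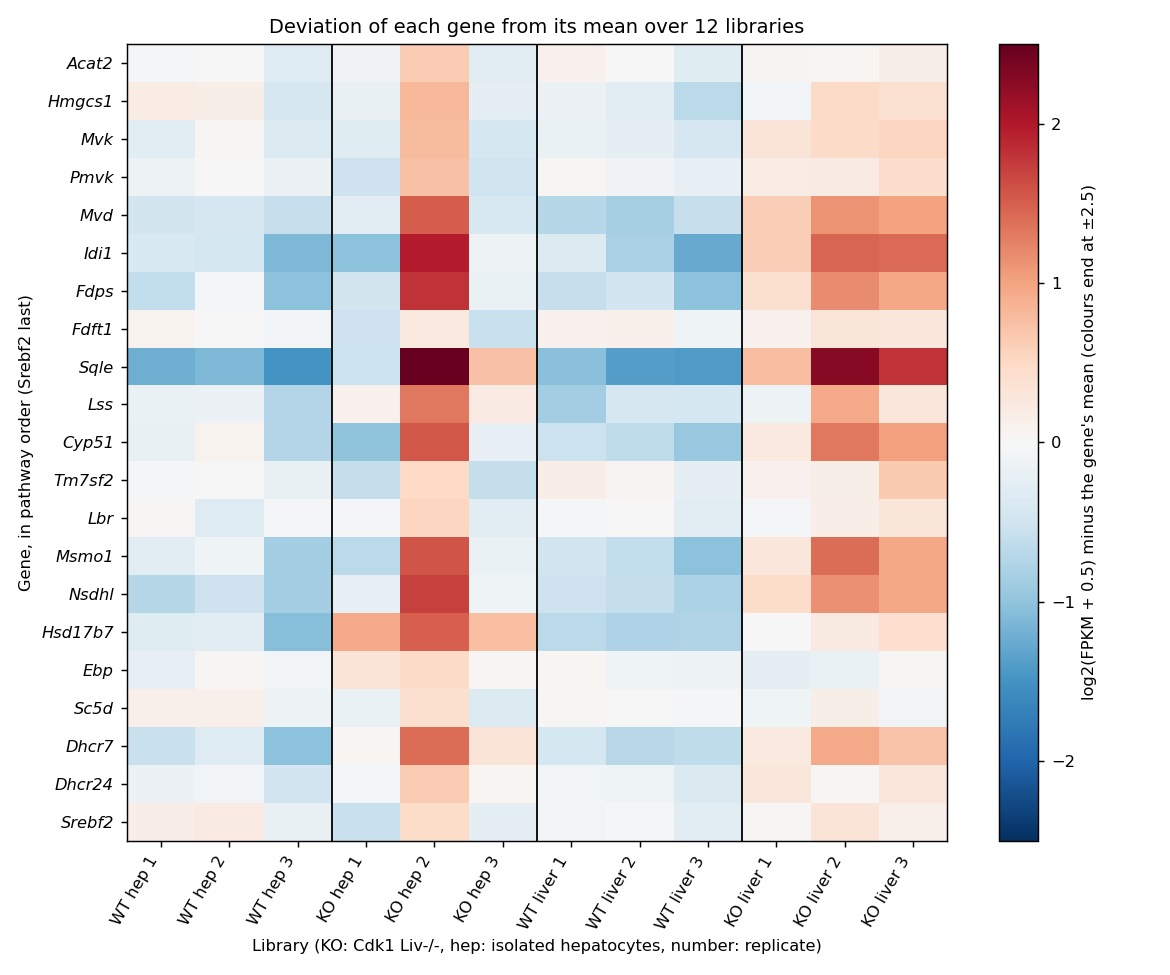
From top to bottom are the enzymes reported in the order of the pathway with Srebf2 last, from left to right are the 12 libraries, and colour gives log2(FPKM + 0.5) minus the gene's mean over the libraries, red above and blue below. Red fills the column of Cdk1 Liv-/- hepatocytes replicate 2 and many genes of the Cdk1 Liv-/- whole liver libraries, with Sqle the strongest.

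The rest of the pathway was described by a list of 16 further enzymes. Where 0 is given for a direction in this and the next lists, an unadjusted p under 0.05 in limma also gave 0, apart from 1 lower gene of export in hepatocytes and 1 higher clock gene in whole liver. In whole liver 10 rose and 0 fell, where 38% and 7.53% of all genes did, with 8 to 11 rising over the other settings, 2 falling with median-ratio scaling, and a median of 0.53 beside 0.18 for all genes. Mvd, which makes isopentenyl diphosphate, had 0.90, 0.79 and 1.03 FPKM in WT and 2.99, 4.51 and 4.13 in Cdk1 Liv-/- whole liver. These groups were far apart, and Mvd rose by 1.62 (adjusted p = 0.00222). Among the enzymes after lanosterol, Msmo1 rose by 1.59, Cyp51 by 1.57, Nsdhl by 1.49, Dhcr7 by 1.22 and Hsd17b7 by 0.95, at adjusted p values of 0.004 to 0.0132. Ebp, an isomerase of the same stretch, stood lowest in the list at -0.057 (adjusted p = 0.647), and passed as lower with median-ratio scaling (-0.28, adjusted p = 0.0837, the other settings reaching up to 0.996). The rise was thus uneven along the pathway, with 6 of the 16 not passing.

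In hepatocytes 2 of the 16 further enzymes rose and 0 fell, a share near the 12.1% of all genes that rose there, with a median of 0.37 beside 0.05 for all genes. With all 12 libraries in 1 fit 6 of the 16 rose, where 3434 of the 17386 genes did, and with median-ratio scaling or no filter 1 rose. Hsd17b7, a reductase of late sterol synthesis, had 5.58, 5.77 and 3.09 FPKM in WT and 13.90, 20.72 and 12.13 in Cdk1 Liv-/- hepatocytes. All 3 Cdk1 Liv-/- libraries were more than 2 times the highest WT one, and Hsd17b7 rose by 1.61 (SE 0.29, adjusted p = 0.0215), also without any 1 of the libraries. Dhcr7, the last reductase before cholesterol, rose from 8.75, 10.50 and 6.20 to 13.74, 35.61 and 16.54 FPKM, by 1.23 (adjusted p = 0.0928). That call was lost with median-ratio scaling (adjusted p = 0.105), with no filter (0.207) and without any 1 library other than KO replicate 1, with an adjusted p of 0.0181 to 0.211 over the other settings. The count was 1 without any 1 of the WT replicates or without KO replicate 2, and without the latter 3 enzymes passed as lower. Fdft1, which makes squalene, was lowest at -0.30 (adjusted p = 0.426), and was 1 of these 3, at -0.56 (adjusted p = 0.0291, up to 0.728 in other settings). Of all genes 647 passed as lower without KO replicate 2. Since that library was picked out by the members' own high levels, no direction is read from these 3.

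**Figure D3:**
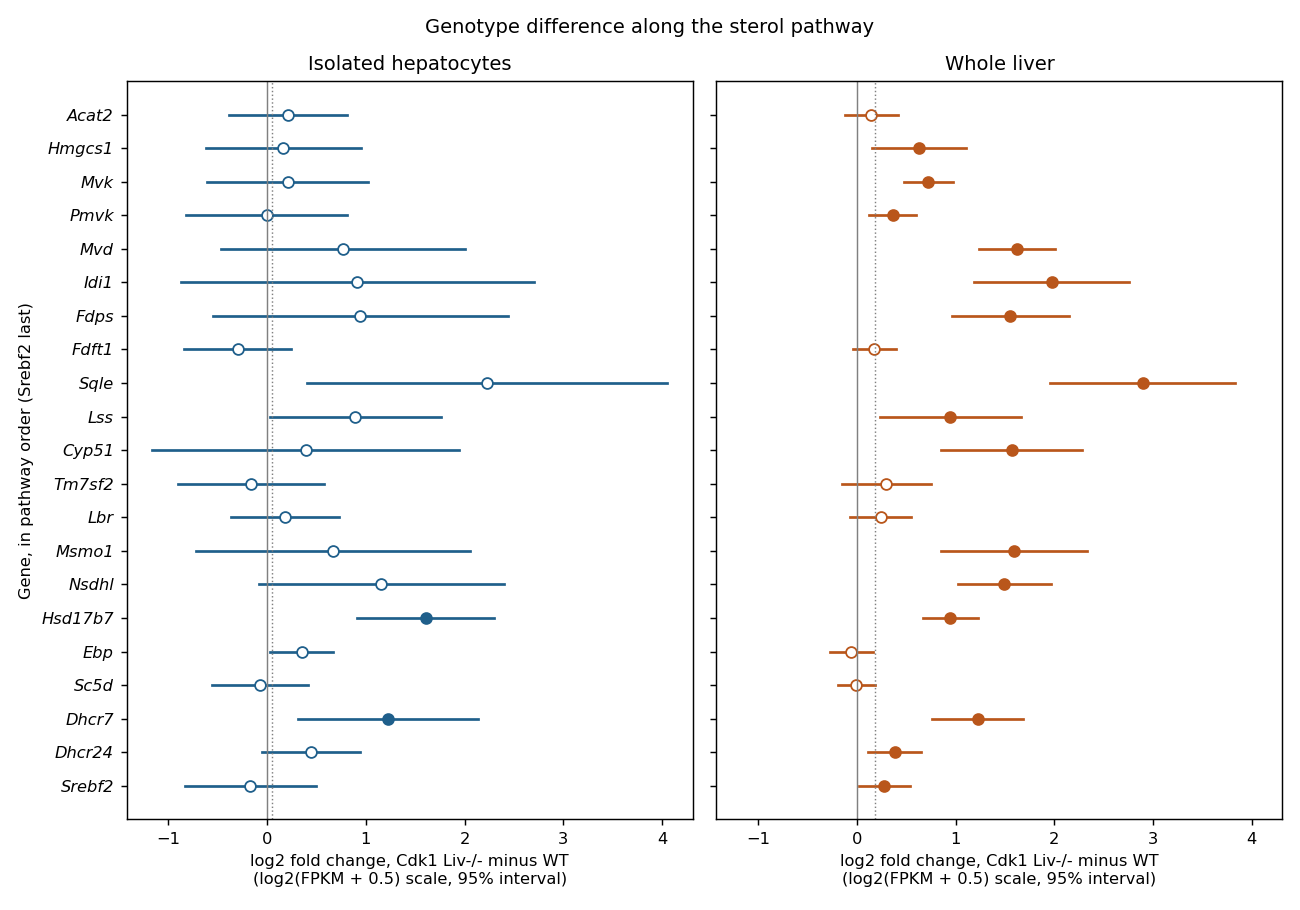
Points give the log2 fold change, Cdk1 Liv-/- minus WT, of each enzyme reported, in pathway order with Srebf2 last, and lines its 95% interval, for hepatocytes on the left and whole liver on the right; filled points passed the test, and the dotted line is the median of all tested genes. Most intervals are wider in hepatocytes, where Hsd17b7 and Dhcr7 are filled, than in whole liver, where Sqle is farthest to the right.

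A list of 6 genes holds those that control the sterol sensor. Of these, 2 rose and 2 fell in whole liver, beside 38% and 7.53% of all genes, and 0 rose and 1 fell in hepatocytes, beside 12.1% and 6.61%, with medians of 0.14 and 0.083 beside 0.18 and 0.05. Without hepatocyte KO replicate 2, and also with all 12 libraries in 1 fit, the hepatocyte counts were 1 and 2. Scap, the escort of the Srebf2 product, had 32, 36.36 and 36.12 FPKM in WT hepatocytes and 23.16, 19.12 and 20.60 in Cdk1 Liv-/- hepatocytes, and 37.87, 38.80 and 40.36 against 23.03, 25.87 and 21.36 in whole liver. The genotypes were apart in both compartments, and Scap fell by 0.72 (adjusted p = 0.00994) in hepatocytes and by 0.73 (adjusted p = 0.00304) in whole liver, under every setting tried. Insig2, which retains Scap, rose by 0.91 (adjusted p = 0.00328) in whole liver, from 89.25, 71.50 and 81.53 to 159.21, 137.77 and 157.60 FPKM. In hepatocytes it was 0.45 (adjusted p = 0.223) and passed without KO replicate 2 (0.68, adjusted p = 0.0508, up to 0.458 in other settings) and with all 12 libraries in 1 fit (adjusted p = 0.0924).

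Srebf1, the relative of Srebf2 that drives genes of fatty acid synthesis, fell by 0.71 (adjusted p = 0.0108) in whole liver, from 123.76, 127.19 and 113.94 to 88.44, 64.06 and 72.36 FPKM. Its call was lost in the fit of all 12 libraries (adjusted p = 0.124, from 0.00693 in the other settings). The hepatocyte values were 157.46, 161.89 and 113.67 in WT and 60.98, 135.31 and 46.38 in Cdk1 Liv-/-, where replicate 2 reached the WT range. The difference of -0.97 (adjusted p = 0.172) passed with all 12 libraries in 1 fit (adjusted p = 0.0472), and was -1.41 and passed without KO replicate 2 (adjusted p = 0.0264, up to 0.363 in other settings). Mbtps2, a protease that releases the active factor, rose by 0.31 (adjusted p = 0.0285) in whole liver but not with median-ratio scaling (0.13, adjusted p = 0.238, from 0.0228 in the other settings). With that scaling 1 gene of the list rose and 3 fell in whole liver.

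For uptake and transport inside the cell, 4 of 12 listed genes rose and 0 fell in whole liver, near the 38% of all genes that rose, with a median of 0.19 beside 0.18, and 1 rose and 2 fell in hepatocytes, beside 12.1% and 6.61%, with a median of 0.087 beside 0.05. Median-ratio scaling gave 3 higher and 2 lower in whole liver. Npc2, which hands cholesterol out of the lysosome, rose by 0.65 (adjusted p = 0.0176), from 16.93, 17.98 and 18.72 to 24.30, 34.84 and 26.89 FPKM in whole liver. Vldlr, a receptor of lipoproteins, had 0.60, 0.66 and 1.66 FPKM in WT and 2.01, 3.60 and 2.27 in Cdk1 Liv-/- whole liver, and 0.64, 0.56 and 1.31 against 2.32, 2.77 and 2.09 in hepatocytes. In each compartment WT replicate 3 was nearest to the Cdk1 Liv-/- libraries. Vldlr rose by 1.12 (adjusted p = 0.042) in whole liver, a call lost without WT replicate 1, WT replicate 2 or KO replicate 2 (adjusted p of 0.0191 to 0.127 over all other settings), and by 1.15 (adjusted p = 0.0355) in hepatocytes, lost without WT replicate 1 or KO replicate 2 (adjusted p of 0.0175 to 0.12 over all other settings), so that the hepatocyte count of 1 became 0, while with all 12 libraries in 1 fit it was 2. Lipa, the lysosomal lipase, rose by 0.35 (adjusted p = 0.0179) in whole liver but not with median-ratio scaling (0.12, adjusted p = 0.312, from 0.00653 in the other settings).

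The 2 uptake genes that fell in hepatocytes were Mylip, a ubiquitin ligase for lipoprotein receptors, and Sort1, a sorting receptor. Mylip had 4.70, 2.93 and 7.36 FPKM in WT and 1.83, 1.01 and 1.80 in Cdk1 Liv-/- hepatocytes, and 4.88, 5.52 and 6.27 against 5.84, 8.93 and 6.71 in whole liver. The genotypes were apart in hepatocytes and overlapped in whole liver. The endothelial markers given above summed to 127, 83.2 and 235 FPKM in these WT libraries and to 59.0, 36.5 and 44.8 in these Cdk1 Liv-/- libraries, so both were highest in WT replicate 3, and the part of other cells in the level of Mylip was not tested. Mylip fell by 1.37 (adjusted p = 0.056) in hepatocytes, a call lost with no filter (adjusted p = 0.133) and without any 1 library other than WT replicate 2 (adjusted p of 0.00598 to 0.166 over all other settings), and was 0.33 (adjusted p = 0.181) in whole liver, where it passed without KO replicate 1 (0.45, adjusted p = 0.095, up to 0.627 in other settings). Its interaction of -1.70 (adjusted p = 0.0562) passed, but did not without whole liver WT replicate 1, WT replicate 2 or KO replicate 2 (adjusted p of 0.0128 to 0.147 over all other settings). Sort1 fell by 0.82 (adjusted p = 0.0536) in hepatocytes, a call lost with no filter (adjusted p = 0.112) and without WT replicate 1, WT replicate 2, KO replicate 1 or KO replicate 3 (adjusted p of 0.00605 to 0.136 over all other settings), and was -0.21 (adjusted p = 0.2) in whole liver, where it passed with median-ratio scaling (-0.42, adjusted p = 0.0438, up to 0.441 in other settings). The count of 2 was 0 with no filter and without WT replicate 1, KO replicate 1 or KO replicate 3 and 1 without any 1 of the others.

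In the list of export and esterification, 2 of 9 genes rose and 3 fell in whole liver, beside 38% and 7.53% of all genes, with a median of -0.065 beside 0.18, and 0 passed in hepatocytes in limma (1 at an unadjusted p under 0.05), where 12.1% of all genes rose and 6.61% fell, with a median of -0.30 beside 0.05. Abcg5 and Abcg8, the partners in the pump that moves sterols into bile, showed the clearest drop. Abcg5 went from 107.22, 118.71 and 113.02 to 55.52, 30.90 and 43.28 FPKM in whole liver, and Abcg8 from 68.04, 72.38 and 72.70 to 36.23, 21.75 and 23.99. All Cdk1 Liv-/- libraries were below WT, with replicate 2 the lowest for both. Abcg5 fell by 1.41 (adjusted p = 0.00657) and Abcg8 by 1.40 (adjusted p = 0.00529), under every setting tried. In hepatocytes Abcg5 was at 105.18, 116.22 and 127.15 in WT and 100.77, 43.46 and 65.25 in Cdk1 Liv-/-, where replicate 1 was close to WT. The difference of -0.81 (adjusted p = 0.133) passed with all 12 libraries in 1 fit (adjusted p = 0.0511), and was -1.11 and passed without KO replicate 1 (adjusted p = 0.0407, up to 0.352 in other settings), when 2 genes of the list passed as lower, against 1 without KO replicate 3 and 3 with all 12 libraries in 1 fit.

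Lcat, which esterifies cholesterol in plasma, fell by 0.28 (adjusted p = 0.0188) in whole liver, a call lost in the fit of all 12 libraries (adjusted p = 0.105, from 0.005 in the other settings). The 2 that rose there were Soat1 by 0.78 (adjusted p = 0.0478), an esterifying enzyme, and Abcg1 by 0.57 (adjusted p = 0.0564), an exporter to lipoproteins. Soat1 did not pass with median-ratio scaling (adjusted p = 0.115), with no filter (0.106) or without WT replicate 1, WT replicate 2, KO replicate 2 or KO replicate 3 (adjusted p of 0.0333 to 0.122 over all other settings), nor Abcg1 with median-ratio scaling (0.172), with no filter (0.117), with all 12 libraries in 1 fit (0.244) or without WT replicate 1 or WT replicate 2 (adjusted p of 0.04 to 0.244 over all other settings). With median-ratio scaling 0 genes of this list rose and 4 fell, and the count of 2 was 0 with no filter and without WT replicate 1 or WT replicate 2, and 1 with all 12 libraries in 1 fit and without KO replicate 2.

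Genes that draw on the pathway for other products gave 4 of 8 higher and 0 lower in whole liver, not far from the 38% of all genes that rose, with a median of 0.18 beside 0.18, and 1 higher in hepatocytes, near the 12.1% there, with a median of 0.13 beside 0.05. That count of 4 was 1 without WT replicate 1, WT replicate 3 or KO replicate 2 and was 2 with all 12 libraries in 1 fit, and median-ratio scaling gave 1 higher and 1 lower. Fntb, a subunit of the enzyme that attaches farnesyl to proteins, rose by 0.51 (adjusted p = 0.0136) in whole liver under every setting tried, from 2.09, 2.28 and 2.18 to 3.11, 3.09 and 3.81 FPKM. It rose by 0.54 (adjusted p = 0.0503) in hepatocytes, from 1.67, 1.85 and 1.89 to 2.82, 2.94 and 2.75, and this call was lost without any 1 library other than WT replicate 3 (adjusted p of 0.00445 to 0.177 over all other settings), so that the count of 1 became 0.

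Fatty acid synthesis, shown for comparison, had 6 of 8 listed genes higher and 0 lower in hepatocytes, where 12.1% of all genes rose, with a median of 1.11 beside 0.05, and 4 higher and 0 lower in whole liver, not far from the 38% there, with a median of 0.38 beside 0.18. Median-ratio scaling gave 3 higher and 1 lower in whole liver, and the 6 in hepatocytes were 3 without WT replicate 3 and KO replicate 2. Scd1, which puts a double bond into fatty acids, was at 5.33, 4.32 and 8.09 FPKM in WT and 35.09, 119.62 and 64.43 in Cdk1 Liv-/- hepatocytes, and at 4.38, 6.41 and 8.18 against 17.53, 19.29 and 21.51 in whole liver. It rose by 3.39 (adjusted p = 0.00905) in hepatocytes and by 1.58 (adjusted p = 0.00541) in whole liver. This gene was high in all 3 Cdk1 Liv-/- hepatocyte libraries, as was the elongase Elovl6, which rose by 2.96 (adjusted p = 0.00447) in hepatocytes and by 1.82 (adjusted p = 0.000733) in whole liver.

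**Figure D4:**
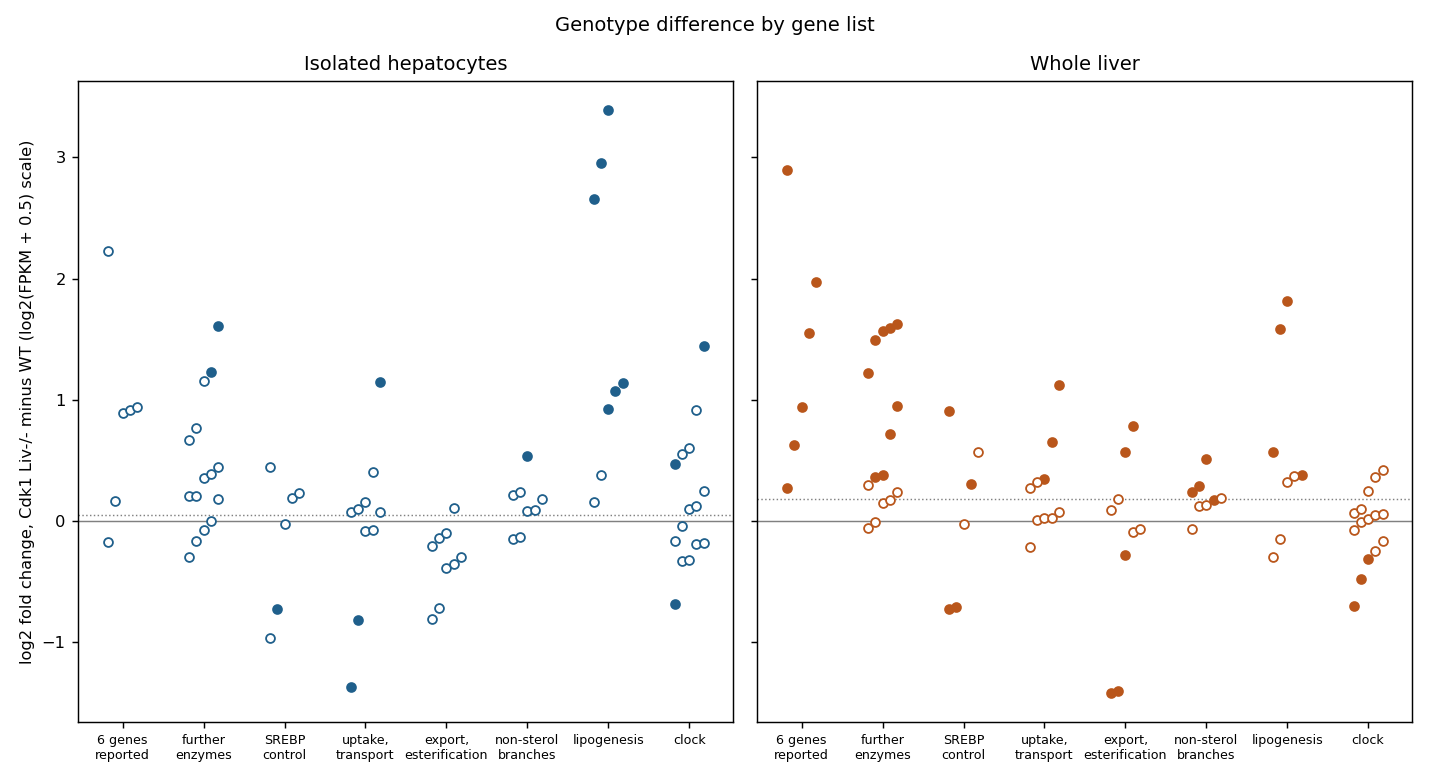
Each point is 1 gene (list genes not reported here are counted in the text but not drawn), placed by its list on the horizontal axis and its log2 fold change, Cdk1 Liv-/- minus WT, on the vertical axis, in hepatocytes on the left and whole liver on the right; filled points passed the test, and the dotted line is the median of all tested genes. The 6 genes reported are all filled in whole liver and none in hepatocytes, while genes of lipogenesis reach higher in hepatocytes.

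Sterol synthesis follows the time of day in the liver, and the hour of harvest was not given, so clock genes were read beside it. Of 15 clock genes 2 rose and 1 fell in hepatocytes, shares near the 12.1% and 6.61% of all genes, with a median of 0.10 beside 0.05, and 0 rose and 3 fell in whole liver, beside 38% and 7.53%, with a median of 0.016 beside 0.18. Nr1d1, a repressor of the clock, had 5.06, 3.22 and 5.83 FPKM in WT and 12.34, 11.68 and 16.40 in Cdk1 Liv-/- hepatocytes, and rose by 1.45 (adjusted p = 0.016). Per3 fell by 0.70 (adjusted p = 0.0249) in whole liver, from 9, 11.89 and 7.40 to 5.79, 5.23 and 5.5 FPKM. The gene that fell in hepatocytes was Cry1, by 0.69 (adjusted p = 0.0778), and it did not pass with no filter (adjusted p = 0.151) or without WT replicate 1, 2 or 3, KO replicate 1 or KO replicate 3 (adjusted p of 0.0076 to 0.174 over all other settings). The count of 2 was 1 with median-ratio scaling, with no filter and without any 1 library other than KO replicate 2, and 4 without that one and with all 12 libraries in 1 fit. The 3 in whole liver were 5 without KO replicate 1, 6 with median-ratio scaling and 1 with all 12 libraries in 1 fit, while 1 rose there without WT replicate 2 or KO replicate 2, with a mean of at least 1 FPKM and with equal sums of the libraries. Any part of the time of day in the levels of the sterol genes was not tested.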

How the data were processed

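The authors deposited FPKM with 2 decimals for 47069 genes in 12 libraries, made with RSEM 1.2.31 and STAR (version not given) on mm10 per the submitters' processing notes. The annotation release was not stated there. From these values log2(FPKM + 0.5) was tested by limma 3.58.1 (R 4.3.3, empirical Bayes with a trend, two-sided) for genes averaging at least 0.1 FPKM, with Benjamini-Hochberg adjustment over all 17386 and a threshold of 0.1. Genotypes were compared on the 6 libraries of a compartment, and compartments and the interaction on all 12. Scripts were checked on simulated data.

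Members and lists were chosen with earlier results of these data known. All members, listed pathway genes and the 5 genes most alike could be named, though some listed genes and 1 of those 5 are not reported here. Copies were sought with BLAST+ 2.17.0, and their 300-base minimum was set after short repeat matches were seen. Alternatives changed the pseudocount, filter, scaling, threshold, block, libraries fitted together and each library in turn, and 2 were added after seeing the data. Of these, the one without the libraries that stand apart was at first dropped once its result was known. With an estimated 34.7 to 49.8 reads per FPKM and kilobase, levels far below 1 FPKM rest on few reads.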

Additional observations from a re-analysis of the deposited data

Results flagged for a closer look

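Of the genes named, 6 had a genotype difference that was not the same in hepatocytes and in whole liver by the interaction test in limma, given here as hepatocytes minus whole liver on the log2 scale. None is among the 6 sterol genes described above, and 9.85% of all tested genes passed this test. The 6 were 1 of 12 genes of uptake, 1 of 8 of other products, 3 of 8 of fatty acid synthesis and 1 of 15 clock genes. In the other lists 0 genes passed. Mylip had -1.70 (adjusted p = 0.0562, 0.0128 to 0.147 over the other settings), and did not pass without whole liver WT replicate 1, WT replicate 2 or KO replicate 2. In the hepatocyte libraries its levels (4.70, 2.93 and 7.36 FPKM in WT, 1.83, 1.01 and 1.80 in Cdk1 Liv-/-) had the same order as the summed endothelial markers (127, 83.2 and 235 in WT, 59.0, 36.5 and 44.8 in Cdk1 Liv-/-), whose part in it was not tested. Fnta, a subunit shared by enzymes that attach isoprenoids to proteins, had -0.32 (adjusted p = 0.0903, 0.0802 to 0.31), and passed only without hepatocyte WT replicate 2 or whole liver KO replicate 1 when 1 library was left out. With median-ratio scaling it was -0.18 and did not pass (adjusted p = 0.31). For the fatty acid desaturase Scd1 the value was 1.81 (adjusted p = 0.087, 0.0562 to 0.164), and of the 12 libraries only hepatocyte WT replicate 3 or KO replicate 1 could be left out without losing the call.

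The elongase Elovl6 had 1.14 (adjusted p = 0.0922, 0.0537 to 0.187), a call kept only without hepatocyte KO replicate 2 or KO replicate 3. Thrsp, a regulator of fatty acid synthesis, had 2.96 (adjusted p = 0.0637, 0.0427 to 0.162), and did not pass without hepatocyte WT replicate 3, KO replicate 3, whole liver KO replicate 2 or any 1 of the whole liver WT replicates. It rose by 2.66 (adjusted p = 0.0109) in hepatocytes, from 4.18, 3.55 and 1.18 to 18.32, 20.34 and 19.86 FPKM, and was at -0.30 (adjusted p = 0.725) in whole liver, a sign that turned without WT replicate 1 (0.034) or KO replicate 2 (0.26). The clock repressor Nr1d1 had 1.02 (adjusted p = 0.0871, 0.0669 to 0.173), and passed only without hepatocyte WT replicate 2, WT replicate 3 or KO replicate 2. The interactions of Scd1, Elovl6, Thrsp and Nr1d1 did not pass with no filter on low values (adjusted p of 0.14, 0.148, 0.104 and 0.137), and those of Mylip, Fnta, Scd1, Elovl6 and Nr1d1 did not with hepatocyte WT replicate 3 and whole liver KO replicate 3 left out together (0.116, 0.262, 0.134, 0.177 and 0.139). Of all tested genes, 9.85% passed this test.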

How the results depend on the processing

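Of 1394 values of single genes under other settings, 1162 had the same sign and side of the threshold, 168 lost the call, 32 gained it and 32 changed sign. A pseudocount of 0.1 or 1 changed no call of a named gene. Limits are 3 libraries a group, no read counts, and FPKM whose common shift between genotypes depends on scaling. The cause of each change below was not tested, except that a stricter threshold gives fewer calls by construction.

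In hepatocytes 0 members passed, but 1 with a mean of at least 1 FPKM, 2 with all 12 libraries fitted together and 0 to 1 without 1 library. The 2 further enzymes that rose were 1 with no filter, 1 with median-ratio scaling, 1 at a threshold of 0.05, 6 with all 12 libraries and 1 to 3 without 1 library. Over all genes the 2108 higher became 1303 at a threshold of 0.05, 3434 with all 12 libraries and 1157 to 1622 without 1 library, and the 1149 lower became 714 with no filter, 527 at 0.05, 2072 with all 12 libraries and 402 to 1224 without 1 library. In whole liver the 6 members were 3 with no filter, 3 with median-ratio scaling, 3 at 0.05 and 3 to 6 without 1 library. The 6610 higher and 1310 lower genes became 3107 and 2844 with median-ratio scaling, and the latter 859 to 1296 without 1 library.

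For the interaction, 0 members passed, and 0 to 2 without 1 library. The 1712 genes became 915 with no filter, 1040 with median-ratio scaling, 272 at 0.05, 452 without the 2 libraries left out together and 78 to 2639 without 1 library. Between the compartments of WT the 510 genes became 204 with a mean of at least 1 FPKM, 317 with equal sums, 211 at 0.05 and 95 to 2457 without 1 library. Between those of Cdk1 Liv-/- 0 members passed, and 0 to 4 without 1 library.

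With the replicate number as a block, the counts were 1048 higher and 408 lower in hepatocytes, 656 for the interaction and 269 between compartments of WT, and 5 members passed in whole liver, without Hmgcs1 (adjusted p = 0.112). Other named calls lost with it were those of Vldlr (0.12), Sort1 (0.134), Fntb (0.177) and Cry1 (0.152) in hepatocytes, of Fnta (0.106) in whole liver, and the interactions of Fnta (0.128), Scd1 (just above 0.1), Elovl6 (0.139), Thrsp (0.104) and Nr1d1 (0.128), while Nr1d1 passed in whole liver (0.0942). In hepatocytes list counts with this block were 0 higher and 1 lower for uptake and 0 higher for other products. For the clock they were 1 higher and 0 lower there. In whole liver 1 gene of other products and 1 clock gene rose with it. Libraries of the same number did not deviate together more than others (correlations of -0.317 to 0.239 in 12 pairs, against -0.206 to 0.265 in 24 pairs of other numbers). With 3 libraries a group this cannot exclude a shared origin, and the labels do not say what the numbers stand for.

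Signs changed with median-ratio scaling for Fnta in whole liver (-0.042), for Lss in the interaction (0.089) and for Hmgcs1 between compartments of Cdk1 Liv-/- (0.14). Without 1 library, Lss ran from -0.44 to 0.24 and Sqle from -1.52 to 0.073 in the interaction, Lss from -0.21 to 0.47, Hmgcs1 from -0.48 to 0.056 and Sqle from -1.51 to 0.077 between compartments of Cdk1 Liv-/-, and Sqle from -0.076 to 0.12, Idi1 from -0.070 to 0.40 and Fdps from -0.12 to 0.38 between those of WT. The hepatocyte difference of Hmgcs1 ran from -0.18 to 0.35, of Srebf2 from -0.46 to 0.059 and of Acly, a lipogenic enzyme, from -0.28 to 0.39, and the whole liver difference of Thrsp from -0.85 to 0.26.

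Libraries that stand apart (hepatocyte WT replicate 3 and KO replicate 2, and whole liver KO replicate 3) were also left out together, a setting chosen after the data were seen, with hepatocyte KO replicate 2 picked by the members' own levels. In hepatocytes 1 member then passed, Hmgcs1 as lower (-0.38), with 1 further enzyme higher and 2 lower. Of all genes 1250 were higher and 525 lower, and the signs of Idi1 (-0.17) and Acly (-0.33) changed. For the interaction 558 genes passed, and between compartments of Cdk1 Liv-/- 4 members, with Lss at -0.25. In hepatocytes the calls of Dhcr7, Mylip and Fntb were lost and Fdft1, Insig2 and Srebf1 passed, and the interactions of Mylip, Fnta, Scd1, Elovl6 and Nr1d1 did not pass.

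With all 12 libraries in 1 fit, list counts in hepatocytes became 1 higher and 2 lower for control, 2 higher for uptake, 3 lower for export and 4 higher for the clock, and in whole liver 1 lower for control, 1 higher for export, 2 higher for other products and 1 lower for the clock.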
